A study of Homo sapiens with 20 samples.

Results

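The genes described here are 10 genes of hormone cells, most of whose products make hormone precursors into hormones or fill the granules that store them: PCSK1, PCSK2, CPE, CHGA, CHGB, SCG2, SCG5, SLC30A8, ERO1B and G6PC2. They were chosen by name for their role and not by a cut on their values, but with earlier results of these data known. They make up 10 of the 36601 genes in the day 21 single-cell matrices and 10 of the 62703 genes in the bulk tables. All 10 were counted in every table of the series, and all 10 had at least 20 UMIs (unique molecular identifiers, the tags that mark single RNA molecules) at day 21. Of the 10, 3 held enough bulk counts to be tested.

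Peptide hormones are made as precursors that are folded in the endoplasmic reticulum, packed into secretory granules and cut there. The convertases PCSK1 and PCSK2 cut proinsulin, PCSK2 also cuts proglucagon, and carboxypeptidase E (CPE) trims the basic residues that the convertases leave. Granins (CHGA, CHGB, SCG2) help to form the granules, SCG5 (7B2) is the chaperone of PCSK2, the zinc transporter SLC30A8 loads the granules of insulin and glucagon cells with zinc, ERO1B oxidizes the enzymes that form disulfide bonds in proinsulin, and G6PC2 is the glucose-6-phosphatase subunit of islet cells.

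The study asked how loss of the glutathione peroxidase GPX2 changes the fate of human endoderm. The labels name the human embryonic stem cell line HUES8 for every sample. By the methods, GPX2 KO cells were made in HUES8-iCas9, a HUES8 line with a doxycycline-inducible Cas9 transgene, by deletion of the gene on both alleles and selection of clones. Single-cell libraries came from directed pancreatic differentiation, 1 WT and 1 KO at day 21 (stem cell-derived β cell stage) and 1 of each at day 8 (pancreatic endoderm stage). Bulk RNA-seq held 2 WT and 2 KO libraries of foregut endoderm at day 6, and for day 8 it held pairs of WT libraries, of WT given H2O2, of KO, and of KO given 100 pM sodium selenite, after definitive endoderm had been left to differentiate spontaneously, for 5 days by the labels and from day 4 to day 8 by the methods. ATAC-seq held 2 WT and 2 KO libraries of day 8 spontaneous cultures. The KO cells were clonal line KO2 in ATAC-seq and clonal line KO1 in the day 8 bulk RNA-seq and, in all but 1 legend, at day 21, so clone and data type cannot be told apart. The H2O2 dose is 10 nM in the labels and 10 µM in the study's methods. The day 6 titles carry the mark of the spontaneous cultures while their treatment label names foregut endoderm, and the genotype label of the day 8 bulk KO libraries reads WT, so KO was taken from the titles. Both untreated KO count columns of day 8 are headed ko1 where the titles read ko1 and ko2, but their counts differ by far more than sampling noise (chi-square of 20 per degree of freedom). No label says whether the 2 libraries of a group came from separate cultures, so p-values measure only the spread between these libraries.

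GPX2 itself was lower in the KO libraries but not at 0. At day 6 GPX2 was at 3.81 and 5.66 CPM (counts scaled to the total count of the library) in KO and at 17.7 and 7.52 CPM in WT. At day 8 GPX2 was at 25.8 and 25 CPM in KO, 37.3 and 40.3 CPM in KO with selenite, 100.2 and 115 CPM in WT, and 138.5 and 117.6 CPM in WT with H2O2. At day 21 GPX2 had 46 UMIs in 44 of 5611 KO cells, 30 of them in the FGB cells defined with the day 21 classes, and 109 UMIs in 101 of 6128 WT cells. INS-dominant cells held 0 GPX2 UMIs in KO and 16 in WT. Bulk libraries held 4234408 to 9725172 counts. The day 21 cells held 37074512 UMIs in WT and 46596224 in KO, with medians of 5638 and 8061 UMIs per cell. The KO matrix holds 1285152 barcodes, not filtered for cells, against 8911 in WT, and the libraries share 7 barcodes.

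At day 8 of spontaneous differentiation chromatin was open at the start of most of the 10 genes in both genotypes. Of the 10 genes, 8 had a broad ATAC peak within 1 kb of the start of the canonical transcript in WT and the same 8 in KO, against 82.7% of 20007 protein-coding genes in WT and 82.2% in KO, so their share was close to that of all genes. The exceptions were SLC30A8 and G6PC2, which had no peak there in either genotype. G6PC2 had none over the gene either, whereas 12 WT and 11 KO peaks lay over the gene SLC30A8. The peak at CHGB had the largest fold over background of these genes, 5.23 in WT and 5.83 in KO (−log10 q of 21.7 and 28.3). It was 3.97 and 5.35 at SCG2, 3.58 and 4.18 at CHGA, 3.28 and 3.49 at CPE, 4.65 and 3.76 at SCG5, 2.87 and 2.85 at PCSK2, and 3.52 and 3.52 at ERO1B. PCSK1 had 2 WT peaks, with folds of 3.19 and 4.02, where KO had 1 peak of 2239 bases with a fold of 3.33. Peaks were called on the pooled libraries of each genotype, so none of these differences has a replicate check.

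RefSeq promoters (GRCh38.p14, 250 bases before to 50 after the start) were at hand for 7 of the 10 genes, and 3 are printed because they differ in the letters of core elements and carry, or lack, an ATAC peak. Capitals mark matches on either strand to the cyclic AMP response element TGACGTNA, the TATA box TATAAA and the GC box GGGCGG. PCSK1 lies on the minus strand of chromosome 5 (96390333 to 96434143), and CHGA (chromosome 14, 92923150 to 92935285) and G6PC2 (chromosome 2, 168901291 to 168910000) lie on the plus strand. Each sequence is written 5′ to 3′ on the strand of its gene.
PCSK1, chr5:96433199-96433498: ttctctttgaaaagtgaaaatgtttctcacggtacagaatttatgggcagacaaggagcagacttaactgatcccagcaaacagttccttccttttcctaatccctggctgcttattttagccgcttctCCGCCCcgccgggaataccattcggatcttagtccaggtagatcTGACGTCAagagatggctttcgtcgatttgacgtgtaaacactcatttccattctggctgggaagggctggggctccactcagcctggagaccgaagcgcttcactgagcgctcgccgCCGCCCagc
CHGA, chr14:92922900-92923199: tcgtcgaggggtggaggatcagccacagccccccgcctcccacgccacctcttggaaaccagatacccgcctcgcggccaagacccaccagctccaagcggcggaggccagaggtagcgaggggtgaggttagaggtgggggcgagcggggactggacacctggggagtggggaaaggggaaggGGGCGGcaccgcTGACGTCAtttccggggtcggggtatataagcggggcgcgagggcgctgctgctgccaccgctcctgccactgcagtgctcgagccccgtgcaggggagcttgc
G6PC2, chr2:168901041-168901340: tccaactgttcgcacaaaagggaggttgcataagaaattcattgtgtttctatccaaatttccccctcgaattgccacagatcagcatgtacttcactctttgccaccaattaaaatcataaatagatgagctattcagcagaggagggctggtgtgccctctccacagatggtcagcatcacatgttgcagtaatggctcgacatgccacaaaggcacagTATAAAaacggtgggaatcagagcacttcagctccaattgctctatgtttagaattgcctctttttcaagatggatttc
The response element stood 77 bases upstream of the start of PCSK1 and 54 bases upstream of that of CHGA, while the G6PC2 window held TATAAA 29 bases upstream. Of 35116 RefSeq promoters of this length, 3.01% hold TGACGTNA, 11.5% TATAAA and 45% GGGCGG. PCSK2, CPE, SCG5 and ERO1B held no match to TGACGTNA. The letters tatataag in the printed CHGA window do not match TATAAA exactly and were left unmarked. The matches are letters in a window and not sites shown to be used.

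At day 21 every cell was placed by its hormones. A cell was INS-, GCG- or SST-dominant where that hormone had the most UMIs of the 3 and at least 1% of the UMIs of the cell. Other cells were placed, in this order, by at least 3 UMIs of TPH1 (the enzyme of serotonin synthesis), 2 of NEUROG3, 3 of FGB or 2 of SOX9, and the rest are called remaining cells. None of these genes is one of the 10. The leading hormone was between 0.5% and 1% in 143 WT and 102 KO cells, just outside the limit, and between 1% and 2% in 141 and 133 cells, just inside it. WT held 960 INS-dominant (15.7%), 71 GCG-dominant, 8 SST-dominant, 214 TPH1, 121 NEUROG3, 4 FGB and 98 SOX9 cells and 4652 remaining cells. KO held 1090 INS-dominant (19.4%), 100 GCG-dominant, 5 SST-dominant, 236 TPH1, 6 NEUROG3, 1690 FGB (30.1%) and 47 SOX9 cells and 2437 remaining cells. Levels are CPM with the UMIs of INS, GCG and SST left out of the total. With 1 library per genotype there is no test. Values are given with exact 95% intervals that cover counting error only, and a gene is counted as different where its ratio is at least 1.5-fold either way, the interval leaves out 1, and both groups together hold at least 20 UMIs. A gene that is scarce in 1 group can thus meet the UMI limit through the other group alone.

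The classes were set against markers. INS-dominant cells held the β cell markers NKX6-1 (168 and 126 CPM in WT and KO), PDX1 (99.3 and 90.6) and MNX1 (107 and 104). IAPP, the amyloid peptide co-stored with insulin, was at only 4.92 and 9.63 CPM and ADCYAP1 at 0.447 and 0.518. They also held TPH1 at 280 and 291 CPM, and 606 of 960 WT and 719 of 1090 KO cells held no TPH1 UMI. GCG-dominant cells held TTR at 39783 and 59661 CPM, and their median INS share was still 3.14% in WT and 4.82% in KO. Of cells with GCG at 1% or more, 133 of 148 in WT and 170 of 184 in KO also had INS at 1% or more. SST-dominant cells held the δ cell factor HHEX at 369 and 187 CPM. Scrublet marked 4 WT cells as doublets (0.0653%), so it has not worked there, and 110 KO cells (1.96%).

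All 10 genes were far lower in the remaining cells than in INS-dominant cells. In WT 10 of 10 were counted as lower, against 45.2% of all genes counted as different, with ratios from 0.0330 for SLC30A8 to 0.286 for CPE. In KO 10 of 10 were lower, against 49% of all genes, with ratios from 0.00595 for G6PC2 to 0.383 for SCG2. G6PC2, with 17 UMIs in WT and 2 in KO remaining cells, met the UMI limit only through the INS-dominant cells. Together the 10 genes took 1.5% of the UMIs other than INS, GCG and SST in WT and 1.91% in KO INS-dominant cells, 1.83% and 2.30% in GCG-dominant cells, 1.30% and 1.97% in TPH1 cells and 0.161% and 0.201% in remaining cells. In the KO FGB cells, which carried the fibrinogen genes FGB at 1669 and FGG at 801 CPM, they took 0.0395%. CHGA alone made up 70.4% of these UMIs in WT and 76.8% in KO INS-dominant cells.

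**Figure D1:**
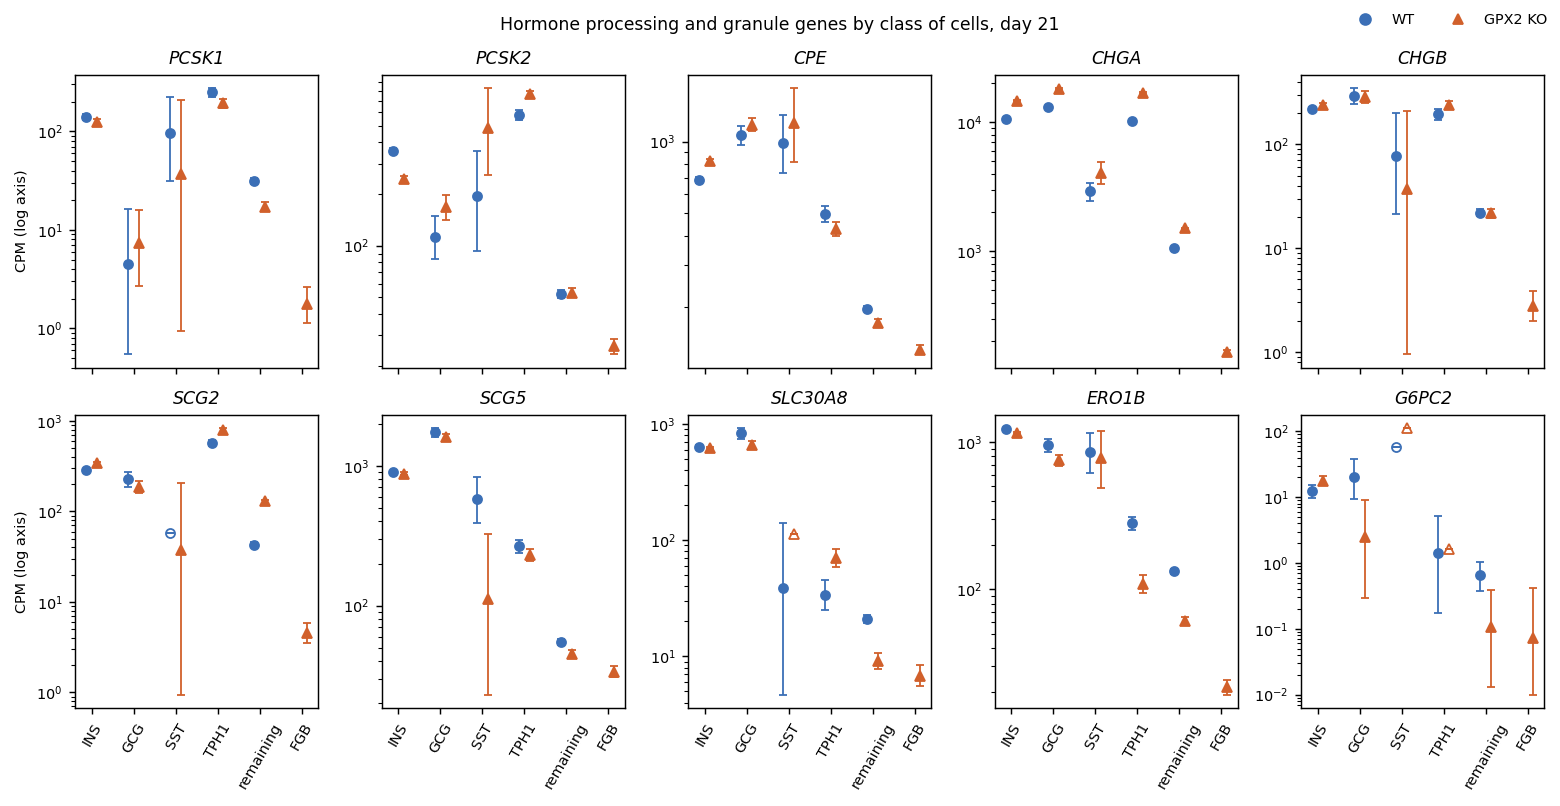
Level of each of the 10 genes by cell class at day 21, 1 panel per gene, with CPM (INS, GCG and SST left out of the total) on a log axis, WT and GPX2 KO as separate symbols, and exact 95% Poisson intervals as bars. Open symbols are classes with 0 UMIs, drawn at the level that 3 UMIs would give, and FGB cells are shown for KO only because WT had 4. PCSK1 drops to 4.49 and 7.40 CPM in GCG-dominant cells, while SLC30A8 is at 831 and 657 CPM there and at 34.0 and 70.2 CPM in TPH1 cells.

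The convertases divided the hormone classes. PCSK1 was at 140 CPM (131 to 149) in WT and 126 (119 to 133) in KO INS-dominant cells. In GCG-dominant cells it had 2 UMIs over 71 WT cells and 6 over 100 KO cells, 4.49 CPM (0.544 to 16.2) and 7.40 (2.72 to 16.1). The ratio of GCG- to INS-dominant cells was 0.0321 (0.00388 to 0.116) in WT and 0.0588 (0.0215 to 0.128) in KO. PCSK1 was highest in TPH1 cells, at 250 CPM in WT and 194 in KO.

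PCSK2 (chromosome 20, 17226107 to 17484578, plus strand) was present in all of these classes. It was at 355 CPM (341 to 369) in WT and 245 (235 to 255) in KO INS-dominant cells, at 112 (83.4 to 148) and 168 (141 to 198) in GCG-dominant cells, and at 577 and 760 in TPH1 cells. GCG-dominant cells thus held less PCSK2 than INS-dominant cells, by a ratio of 0.317 (0.234 to 0.419) in WT and 0.686 (0.573 to 0.815) in KO, of which the second is short of 1.5-fold. Where INS-dominant cells with a TPH1 UMI were left out, an alternative chosen after seeing the data, the KO ratio was 1.18 (0.979 to 1.41) and the WT ratio 0.391, so in KO the direction rested on those cells. Per PCSK1 UMI there were 2.53 PCSK2 UMIs (2.35 to 2.73) in WT and 1.94 (1.81 to 2.09) in KO INS-dominant cells, against 25 (6.57 to 212) and 22.7 (10.2 to 62.9) in GCG-dominant cells.

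The same held cell by cell. UMIs of both convertases were found in 350 of 960 WT INS-dominant cells (36.5%, exact binomial interval 33.4 to 39.6) and 366 of 1090 KO ones (33.6%, 30.8 to 36.5). In GCG-dominant cells they were found together in 0 of 71 WT cells (up to 5.06%) and 5 of 100 KO cells (5%, 1.64 to 11.3). PCSK2 without PCSK1 was found in 26 and 47 of these cells. In TPH1 cells both were found in 113 of 214 (52.8%) and 145 of 236 (61.4%). After every cell was thinned to 4000 UMIs, with shallower cells left out (31 WT and 13 KO INS-dominant, 4 and 0 GCG-dominant), PCSK1 was found in 33.4% and 30.8% of INS-dominant and 2.99% and 4% of GCG-dominant cells. In the KO FGB cells PCSK1 was found in 0.605% of the thinned cells and in 1.42% of all, at a median of 7727 UMIs per cell against 9638 in KO GCG-dominant cells. Whether FGB cells lack PCSK1 was not tested.

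CPE (chromosome 4, 165361194 to 165498547, plus strand) was high in every hormone class. It was at 686 CPM in WT and 828 in KO INS-dominant cells, at 1063 and 1180 in GCG-dominant cells, at 989 (736 to 1300) and 1196 (818 to 1688) in SST-dominant cells and at 494 and 427 in TPH1 cells. GCG-dominant cells were higher than INS-dominant ones by 1.55-fold (1.41 to 1.70) in WT and 1.42-fold (1.33 to 1.52) in KO. CPE also reached 660 CPM in the WT NEUROG3 cells, where CHGA was at 1440 CPM, so of the 10 genes it lay closest to its INS-dominant level in cells marked by that progenitor factor.

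CHGA was the granin with the most UMIs in every hormone class, at 10556 CPM in WT and 14697 in KO INS-dominant, 13030 and 18197 in GCG-dominant, 10288 and 16861 in TPH1, and only 2909 (2462 to 3414) and 4073 (3344 to 4913) in SST-dominant cells. CHGB (chromosome 20, 5911510 to 5925353, plus strand) was at 218 and 239 CPM in INS-dominant, 294 and 284 in GCG-dominant and 194 and 240 in TPH1 cells, and at 77.6 and 37.4 CPM in SST-dominant cells, on 4 and 1 UMIs. SCG2 (chromosome 2, 223596940 to 223602361, minus strand) was at 284 and 339 CPM in INS-dominant, 227 and 187 in GCG-dominant and 569 and 793 in TPH1 cells. It had 0 UMIs in the 8 WT and 1 UMI in the 5 KO SST-dominant cells.

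SCG5 (chromosome 15, 32641676 to 32697098, plus strand), the chaperone of PCSK2, had another order of levels than PCSK2. It was at 900 and 876 CPM in INS-dominant cells and at 1732 (1612 to 1859) and 1606 (1520 to 1695) in GCG-dominant cells, 1.92-fold (1.78 to 2.07) and 1.83-fold (1.73 to 1.94) higher. In TPH1 cells, where PCSK2 was highest, SCG5 was at 265 and 231 CPM.

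The zinc transporter and the oxidase were higher in INS- and GCG-dominant cells than in TPH1 cells. SLC30A8 (chromosome 8, 116950273 to 117176714, plus strand) was at 635 and 623 CPM in INS-dominant and 831 and 657 in GCG-dominant cells, but at 34.0 (25.1 to 45.1) and 70.2 (58.7 to 83.3) in TPH1 cells. It had 2 UMIs in WT (38.8 CPM) and 0 in KO SST-dominant cells, so these were not above TPH1 cells. ERO1B (chromosome 1, 236214681 to 236282019, minus strand) was at 1219 and 1153 CPM in INS-dominant, 951 and 751 in GCG-dominant, 853 and 785 in SST-dominant and 281 and 109 in TPH1 cells. G6PC2 was the rarest, with 82 UMIs in 41 of 960 WT and 172 UMIs in 70 of 1090 KO INS-dominant cells (12.2 and 17.8 CPM), 9 and 2 UMIs in GCG-dominant cells, and 2 and 0 in TPH1 cells.

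Counted over all 10 genes, GCG-dominant cells differed from INS-dominant cells in 4 in WT (14.4% of all genes) and 5 in KO (18.4%). PCSK1, lower, and SCG5, higher, were counted in both genotypes. By this rule PCSK2 was counted as lower and CPE as higher in WT but not in KO, and in KO but not in WT SCG2 (0.553), ERO1B (0.652) and G6PC2 (0.139) were lower. Whether the genotypes differ in these was not tested. PCSK1, with 2 and 6 UMIs in GCG-dominant cells, and in KO G6PC2, with 2, met the UMI limit only through the INS-dominant cells. PCSK2 was counted as lower in KO too under 4 alternatives, at 0.630 with all UMIs as denominator, 0.611 with the mean of CPM per cell, 0.625 with the hormone limit at 0.5% and 0.530 without cells of a second hormone. CPE in WT was not counted with all UMIs as denominator (1.42), with the limit at 5% (1.45), without TPH1-carrying cells (1.29) or at 2-fold. With the INS-dominant cells that held a TPH1 UMI left out, PCSK1 was still lower (0.0402 in WT and 0.0659 in KO), ERO1B was lower in both (0.609 and 0.479), SCG5 was at 1.54 in WT and 1.46 in KO, of which only the first passed 1.5-fold, and CHGA passed it in KO (1.62). PCSK1 was counted as lower in both genotypes under each alternative run.

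SST-dominant cells were few, 8 and 5, and their ratios have wide intervals. They were counted as different from INS-dominant cells in 5 of the 10 genes in WT, all lower (5.53% of all genes), and in 6 in KO, of which 5 were lower (3.8%). CHGA (0.276 and 0.277), CHGB (0.356 and 0.156), SCG2, SCG5 (0.646 and 0.128) and SLC30A8 were lower in both. Of these, CHGB (4 and 1 UMIs in SST-dominant cells), SCG2 (0 and 1), SLC30A8 (2 and 0) and in KO SCG5 (3) met the UMI limit only through the INS-dominant cells. PCSK2 was higher in KO (1.99, 1.06 to 3.40), on 13 UMIs. A wider set was therefore taken after seeing the data, all cells with SST at 1% or more, 15 in WT and 41 in KO, of which 7 and 36 had more INS than SST. In this set 5 genes differed in WT (6.53% of all genes) and 6 in KO (11.8%). PCSK1 (0.408 and 0.536), CHGA (0.259 and 0.283), SCG5 (0.521 and 0.237), SLC30A8 (0.180 and 0.107) and SCG2, with 0 and 2 UMIs, were lower in both. PCSK2 in KO turned to 0.696 and was not counted, nor was CHGB (0.632 and 0.808). G6PC2 had 0 UMIs in both. In the wider set PCSK1, SCG2, SLC30A8 and G6PC2 met the UMI limit only through the INS-dominant cells.

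TPH1 cells, which carry the markers of serotonin-making enterochromaffin cells (FEV at 494 and 994 CPM, LMX1A at 443 and 712, DDC at 717 and 723), held the convertases at a higher CPM than INS-dominant cells. In WT 7 of the 10 genes differed (14.5% of all genes) and in KO 8 (17.8%). PCSK1 (1.78 and 1.54), PCSK2 (1.63 and 3.11) and SCG2 (2.00 and 2.34) were higher in both. SLC30A8 (0.0536 and 0.113), ERO1B (0.230 and 0.0948), SCG5 (0.294 and 0.264) and G6PC2 (0.116 in WT, 0 UMIs in KO) were lower in both, and CPE was lower in KO (0.515). CHGA and CHGB were not counted as different. G6PC2, with 2 and 0 UMIs in TPH1 cells, met the UMI limit only through the INS-dominant cells.

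**Figure D2:**
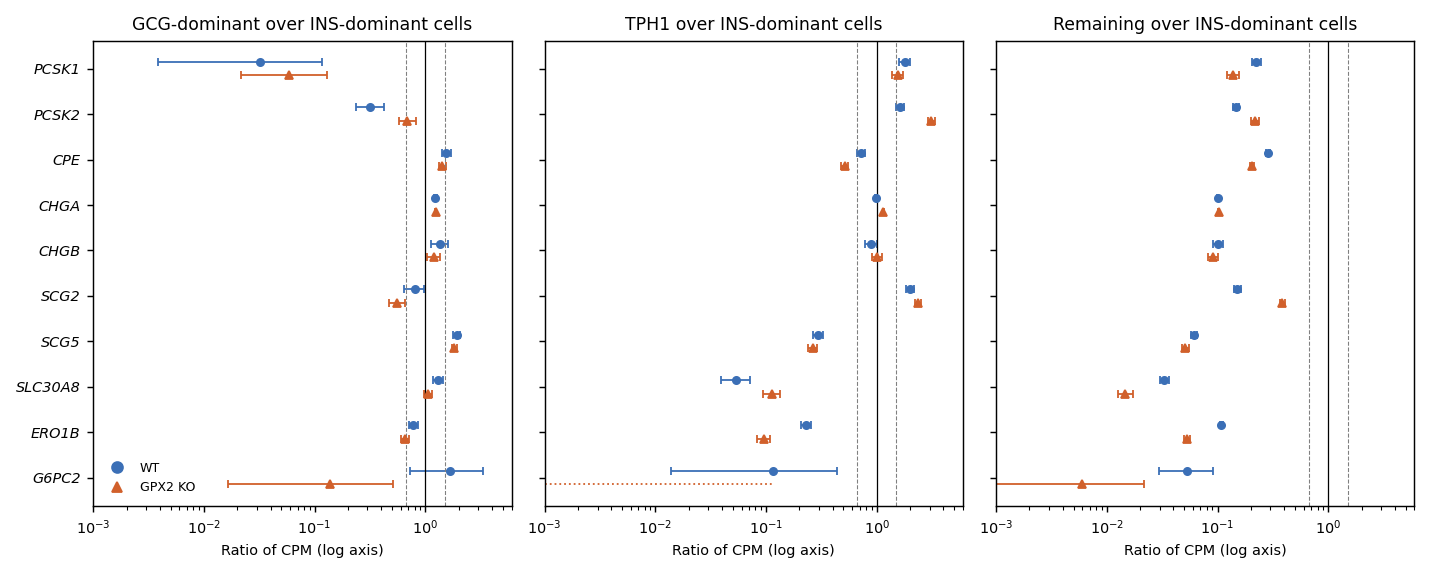
Ratio of each gene in GCG-dominant, TPH1 and remaining cells to INS-dominant cells of the same library at day 21, on a log axis, WT and GPX2 KO as separate symbols, with exact 95% intervals. Dashed lines mark 1.5-fold either way and a dotted line marks 0 UMIs up to the upper bound of the interval, and PCSK1 lies at 0.0321 and 0.0588 in GCG-dominant cells but at 1.78 and 1.54 in TPH1 cells.

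Other genes of the pathway were read from lists. Among 3 relatives of the granins, PCSK1N, which encodes the inhibitor of PCSK1, was higher in GCG- than in INS-dominant cells (1.82 and 1.65), and it was the 1 called in either genotype. Among 13 genes of processing and folding, 11 in WT and 12 in KO had enough UMIs and 3 differed in each (14.4% of all genes in WT and 18.4% in KO), among them PAM, the amidating enzyme (0.631 and 0.504), and the convertase PCSK5 (4.01 and 3.36). Of 23 genes of granule membrane and exocytosis, 1 was higher and 7 lower in WT, and 3 were higher and 9 lower in KO, beside the same shares of all genes. SYT13 (0.114 and 0.123), RAB27A (0.296 and 0.321), RAB3B (0.474 and 0.497), RIMS2 (0.474 and 0.589) and the monoamine transporter SLC18A1 (0.0458 and 0.0516) were lower in both and CADPS2 (1.93 and 2.09) was higher in both. In TPH1 against INS-dominant cells, 1 of the 13 processing and folding genes was higher and 5 lower in WT (14.5% of all genes differed), and 2 were higher and 7 lower in KO (17.8%). Of these the folding genes HSPA5 (0.437 and 0.352), PDIA6 (0.442 and 0.337), P4HB (0.517 and 0.542) and PDIA3 (0.622 and 0.527) and the glutaminyl cyclase QPCT (0.377 and 0.623) were lower in both genotypes, while PAM was higher in WT (2.05) and at 1.44 in KO.

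Within INS-dominant cells some of the 10 genes were higher and others lower at a higher share of INS. Cells were divided at INS shares of 5% and 15%, into 393, 484 and 83 WT cells and 360, 554 and 176 KO cells. From the lowest to the highest share SLC30A8 was at 223, 888 and 1014 CPM in WT and 200, 765 and 974 in KO, and ERO1B at 828, 1403 and 1939 in WT and 325, 1449 and 1786 in KO. G6PC2 was at 3.76, 12.3 and 53.1 CPM in WT and at 0.990, 9.58 and 74.8 in KO. SCG5 (545 to 1392 in WT and 413 to 1319 in KO) and CPE (608 to 1051 and 563 to 1106) were also higher at a higher INS share.

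PCSK1 had no common order in the genotypes, at 166, 129 and 82.4 CPM in WT and 129, 117 and 148 in KO. CHGB (188, 238 and 238 in WT and 241, 230 and 262 in KO) and SCG2 (296, 269 and 331 in WT and 341, 313 and 418 in KO) varied less than 1.5-fold. PCSK2 went the other way, 471, 283 and 249 CPM in WT and 418, 175 and 134 in KO. CHGA was at 19910, 13157 and 9700 CPM in KO and at 10926, 10585 and 8567 in WT. Across single cells Spearman's rho with the INS share was 0.57 in WT and 0.53 in KO for SLC30A8, 0.46 and 0.55 for SCG5, 0.32 and 0.60 for ERO1B, and −0.21 and −0.25 for PCSK2, over 960 and 1090 cells that share a library and whose depth also differs. TPH1 moved along, at 478, 170 and 16.5 CPM in WT and 664, 155 and 16.1 in KO. In cells without a TPH1 UMI, SLC30A8 (252, 1031 and 1022 in WT and 259, 850 and 975 in KO) and ERO1B (1213, 1652 and 1991 in WT and 707, 1684 and 1807 in KO) still had their lowest level at the lowest INS share. PCSK2 there was at 361, 263 and 225 CPM in WT and 181, 136 and 134 in KO, and CHGA at 8139, 9088 and 8487 in WT and 15026, 11034 and 9511 in KO, so CHGA had no order with INS in WT.

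**Figure D3:**
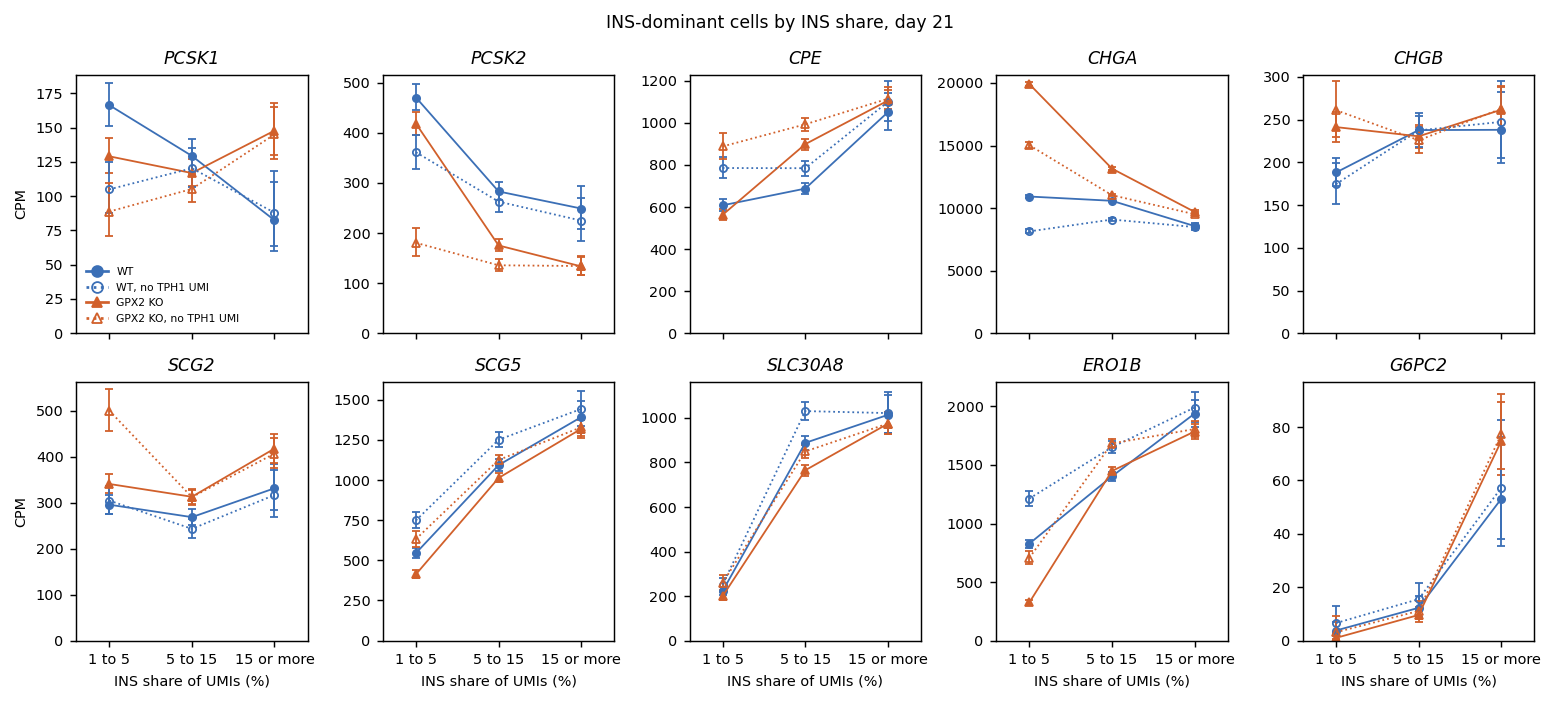
CPM of each of the 10 genes in INS-dominant cells at day 21 by the INS share of the cell (1 to 5%, 5 to 15%, 15% and more), WT and GPX2 KO as separate colours with exact 95% Poisson intervals, filled symbols for all cells and open symbols with dotted lines for cells without a TPH1 UMI. SLC30A8, at 223 and 200 CPM in the lowest bin, and G6PC2 are higher at higher INS shares in both genotypes, and PCSK2 is lower.

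Between KO and WT, none of these genes reached 1.5-fold over all cells of day 21. Of the 10, 0 were counted as different, against 24.8% of 22166 genes, and their median log2 ratio was 0.09 beside −0.08 for all genes. CHGA (4858 CPM in KO and 3305 in WT, 1.47-fold, 1.46 to 1.48) and SCG2 (165 and 111, 1.48-fold, 1.43 to 1.54) lay just under the limit. PCSK1 was at 0.715 (0.672 to 0.760) and ERO1B at 0.850 (0.830 to 0.871), and the other 6 between 0.901 and 1.29. The libraries differ in their cells, with 1690 FGB cells in KO and 4 in WT, and cell share and level per cell cannot be told apart in such a sum.

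In INS-dominant cells alone 0 of the 10 differed by the same rule, against 13% of all genes. CHGA was higher in KO (1.39, 1.38 to 1.41), as were G6PC2 (1.46, 1.11 to 1.92) and CPE (1.21, 1.16 to 1.25), and PCSK2 was lower (0.690, 0.651 to 0.730). PCSK1 (0.898, 0.824 to 0.979), CHGB (1.10, 1.03 to 1.17), SCG2 (1.19, 1.13 to 1.26) and ERO1B (0.946) lay nearer to 1. SLC30A8 (0.981, 0.943 to 1.02) and SCG5 (0.973, 0.942 to 1.01) had intervals that hold 1. The call of PCSK2 depended on which cells were taken. Its ratio was 0.494 in the 719 KO and 606 WT INS-dominant cells without a TPH1 UMI, and 0.593 in cells with INS at 5% or more, both past 1.5-fold. Without the TPH1-carrying cells ERO1B was at 1.00 (0.973 to 1.04) and CHGA at 1.29 (1.27 to 1.31). In all INS-dominant cells 8 of 8 hepatic markers were higher in KO, with FGB at 25.6 CPM against 0.298 in WT, and their part in these ratios was not tested.

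By class, 0 of the 8 genes with enough UMIs differed in GCG-dominant cells (8.65% of all genes), where PCSK2 was at 1.49 (1.07 to 2.11) and CHGA at 1.40 (1.36 to 1.44). With the hormone limit at 0.5% or at 5% PCSK2 was at 1.52 and was counted as higher in KO, so the count there was 1. In TPH1 cells 3 of 9 differed (14.4% of all genes): CHGA was higher in KO (1.64, 1.61 to 1.67), SLC30A8 was higher (2.06, 1.47 to 2.93, with UMIs in 41 of 236 KO and 29 of 214 WT cells) and ERO1B was lower (0.389, 0.327 to 0.462). In the remaining cells 4 of 9 differed (23% of all genes), SCG2 higher (3.02, 2.81 to 3.24) and PCSK1 (0.549), ERO1B (0.464) and SLC30A8 (0.437) lower. The median INS share of these cells was also higher in WT, 0.142% against 0.0606% in KO. Per 100 INS UMIs they held 1.35 SLC30A8 UMIs in WT and 1.15 in KO, and 8.50 and 7.69 of ERO1B. By the same measure PCSK1 was at 2.02 and 2.16 and SCG2 at 2.77 and 16.3. The part of free RNA in these ratios was not tested. CHGA was thus between 1.39 and 1.64 in the INS-dominant, GCG-dominant, TPH1 and remaining cells (1.42 in the last). In the remaining cells 106 of 2437 KO cells, those with at least 5 SCG2 UMIs, held 39.7% of the CHGA UMIs. In WT 48 of 4652 cells held 8.13%. Without such cells CHGA was at 948 CPM in KO and 981 in WT. The limit was set after seeing the values and is on another granin. KO remaining cells are also deeper (median of 7538 UMIs against 5348), so more of them can pass it. What these cells add to the CHGA ratio was not tested. ERO1B was below 1 in the same 4 classes, at 0.946, 0.790, 0.389 and 0.464.

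**Figure D4:**
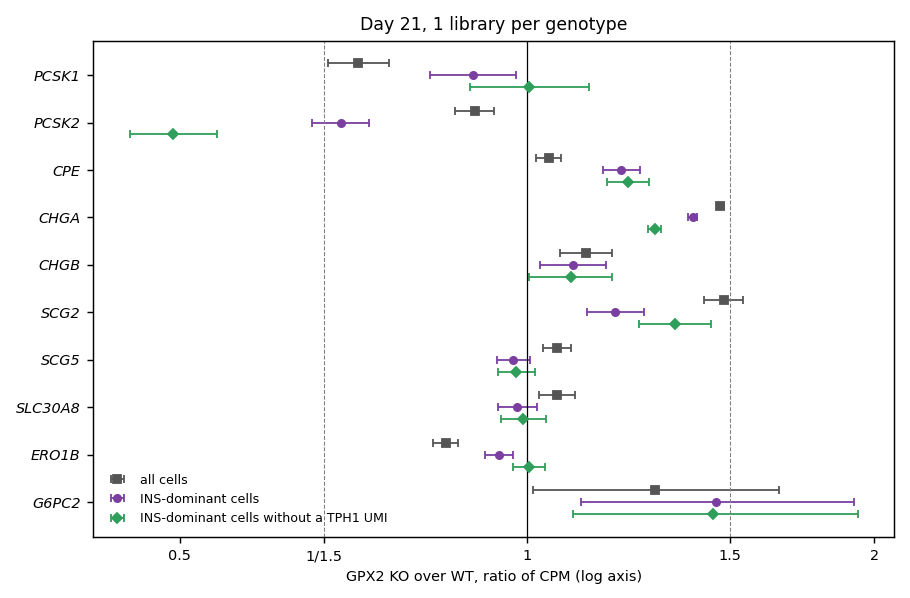
Ratio of KO to WT CPM for each of the 10 genes at day 21, on a log axis, in all cells (squares), INS-dominant cells (circles) and INS-dominant cells without a TPH1 UMI (diamonds), with exact 95% intervals and dashed lines at 1.5-fold either way. CHGA lies at 1.47, 1.39 and 1.29, and PCSK2 at 0.901, 0.690 and 0.494.

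In INS-dominant cells 13% of all genes differed between KO and WT. Of the pathway lists, 0 of 13 processing and folding genes and 0 of 7 zinc transporters differed. Of 23 genes of granule membrane and exocytosis, the potassium channel gene KCNJ11 was higher (1.52) and RAB3A (0.552) and BAIAP3 (0.610) were lower. That share of the list is close to the share of all genes. The neuropeptide precursor VGF, a relative of the granins, was higher (36.9 against 15.2 CPM, 2.42-fold), and the hexokinase HK1 was lower (0.548). Among hormones that did not define the classes, IAPP (1.96), PPY (1.92) and GHRL (1.6) were higher in KO. TTR, which is not a hormone and is also on the list of hepatic markers, was higher too (1.70).

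Free RNA was measured in the KO library, whose matrix keeps its empty droplets. In 1054298 barcodes with at most 100 UMIs, CHGA was at 8369 CPM, ERO1B at 529, CPE at 502, SCG5 at 455 and PCSK2 at 119, and INS took 4.29% of the UMIs. Set against the INS UMIs of the same droplets, a gene that enters cells only as free RNA would keep 1 ratio. Per 100 INS UMIs, KO FGB cells held 26.7 CHGA UMIs against 18.5 in empty droplets and 1.10 SLC30A8 UMIs against 0.685. PCSK2 was at 4.18 against 0.263, CPE at 21.2 against 1.11 and SCG5 at 5.45 against 1.01. PCSK2 had 352 UMIs in 218 of 1690 KO FGB cells (12.9%, 11.3 to 14.6).

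Before endocrine differentiation CPE and ERO1B had the most UMIs of the 10. In the day 8 single cells (1701 WT and 1837 KO cells, medians of 1040 and 836 UMIs), 3 of the 10 genes had at least 20 UMIs and 0 differed between genotypes, against 14.4% of all genes. CPE had 222 UMIs in WT and 207 in KO (77.4 and 79.5 CPM of all UMIs, ratio 1.03, 0.847 to 1.25), ERO1B 186 and 147 (0.871, 0.697 to 1.09) and SCG5 45 and 29 (0.711, 0.429 to 1.16). CHGB and G6PC2 had 0 UMIs, as did INS, GCG and SST. For scale, 3 cells with a UMI would be 0.176% of WT and 0.163% of KO cells. At this depth 0 UMIs do not limit the share of cells that express these genes. PCSK1 had 3 UMIs in WT and 5 in KO, PCSK2 7 and 8, CHGA 4 and 1 and SCG2 1 and 0. SLC30A8 had 11 UMIs in WT and 1 in KO. GPX2 had 4 UMIs in WT and 1 in KO, too few to check the labels.

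In bulk RNA-seq, on the TPM scale, which divides counts by gene length, CPE was at 61.2 to 68.5 in the day 6 and 99.9 to 291 in the day 8 libraries. PCSK2 was at 1.07 to 8.54 and 2.30 to 13.5 TPM, ERO1B at 1.29 to 1.93 and 0.836 to 2.13, and CHGA at 0 to 0.965 and 0.152 to 2.37. CPE was thus the highest of the 10 in all 12 libraries. G6PC2 had 0 counts in all 12, and the highest count of SCG5 was 5 and of SCG2 was 6. Those genes and PCSK1, CHGA, CHGB and SLC30A8 did not pass the filter on low counts. Bulk samples cannot tell fewer expressing cells from less RNA per cell.

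At day 6, PCSK2 was at 2.47 and 14.8 CPM in the KO and 1.88 and 6.97 CPM in the WT libraries. The groups overlapped, and the higher library of each genotype was the one with the letter F in its name. The log2 fold change was 0.99 (SE 0.76, adjusted p = 0.760, edgeR quasi-likelihood test with Benjamini-Hochberg adjustment over 14633 genes). Within each letter KO was above WT, and with the letter as block the log2 fold change was 0.89 (adjusted p = 0.0407 by edgeR), so the call changed, while calls over all genes went from 56 to 842. Without the lower KO library the log2 fold change was 1.76 (adjusted p = 0.00119 by edgeR) and without the higher it was −0.80 (adjusted p = 1 by edgeR). In these fits the spread came from the WT libraries alone, and the lone KO library was assumed to vary like them. CPE was at 51.9 and 50.7 CPM in KO and 47.9 and 52.9 in WT (log2 fold change 0.03, adjusted p = 0.959 by edgeR). ERO1B was at 6.49 and 7.30 CPM in KO and 6.34 and 4.92 in WT (0.29, SE 0.25, adjusted p = 0.787 by edgeR). Of the 3 genes tested 0 passed, where 0.383% of all genes did, 56 in number and 1398 at an unadjusted p under 0.05.

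At day 8, the libraries of a group carry the number 5 or 8, and CPE followed that number. Its levels with number 5 were 87.5 CPM in WT, 78.7 with H2O2, 83.9 in KO and 127 in KO with selenite, and with number 8 they were 201, 168, 201 and 229 CPM. Each number 8 library was above every number 5 library. What the numbers stand for is not stated. The log2 fold changes of CPE were −0.02 (SE 0.60) for KO against WT, −0.22 (SE 0.60) for H2O2 against WT and 0.32 (SE 0.60) for KO with selenite against KO.

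PCSK2 at day 8 was at 24.3 and 18.7 CPM in KO and 14.3 and 4.17 in WT, so both KO libraries were above both WT libraries. The log2 fold change of 1.24 (SE 0.63, unadjusted p = 0.0865) had an adjusted p = 1.00 by edgeR. It was at 5.65 and 11.5 CPM with H2O2 (−0.07, SE 0.63) and at 16.6 and 8.24 in KO with selenite (−0.79, SE 0.61). ERO1B was at 5.70 and 5.90 CPM in KO, 3.21 and 4.17 in WT, 6.12 and 5.51 in WT with H2O2 and 5.21 and 8.24 in KO with selenite. KO and H2O2-treated WT were each higher than WT in ERO1B by a log2 fold change of 0.66 (SE 0.38), without overlap, and both comparisons share the WT libraries. Of the 3 genes tested 0 passed in each comparison, where edgeR called 0% of 14470 genes in all 3. At an unadjusted p under 0.05 edgeR had 177 genes for KO, 130 for H2O2 and 144 for selenite, and DESeq2 called 2, 0 and 0.

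**Figure D5:**
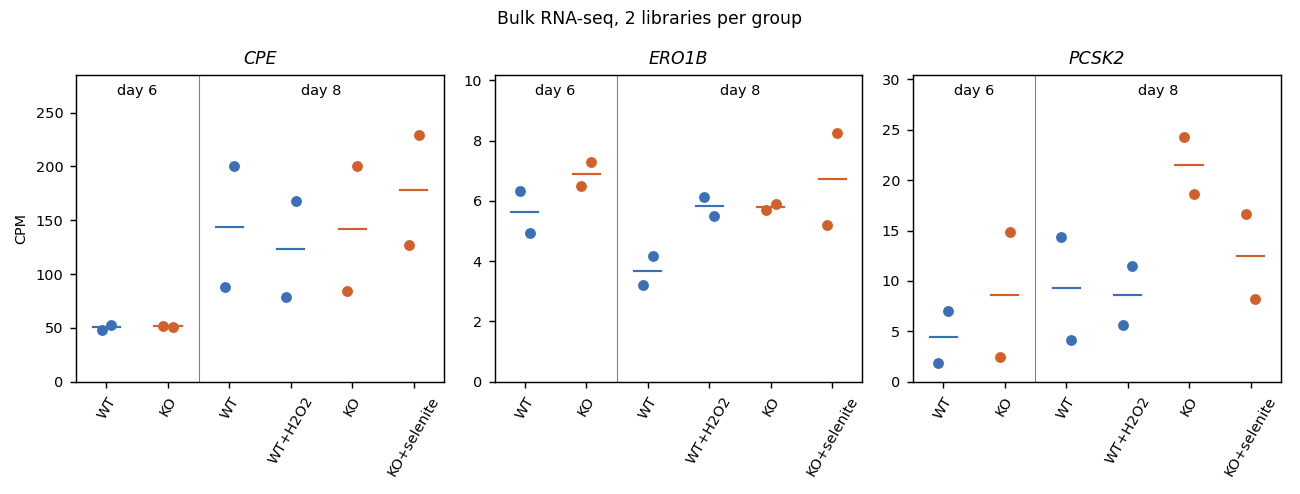
CPM of CPE, ERO1B and PCSK2 in each of the 12 bulk libraries, 1 panel per gene, with day 6 WT and KO on the left and the 4 day 8 groups on the right, a point for each library and a horizontal bar for the mean of 2. The points of CPE lie far apart in each day 8 group, the upper ones at 168 to 229 CPM and the lower ones at 78.7 to 127.

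Genes whose level followed the mean of the 10 most closely were sought over the 11 groups of genotype and cell class with at least 50 cells at day 21, among 4417 genes with at least 50 CPM on average. By Pearson's r of log2(CPM + 10) these were FRMPD4 (0.993), PBX3 (0.992), SCGN (0.990), ADCY1, CNIH2 and UNC80 (0.986), PLCXD3, KCNH6 and CACNA2D3 (0.985) and REEP3 (0.984). Of the 10 themselves CHGB (0.980) and CHGA (0.976) followed the mean most closely and PCSK1 (0.559) and G6PC2 (0.672) least. The 11 groups come from 2 libraries, so these values are a description.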

How the data were processed

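Libraries were grouped by the labels. For bulk RNA-seq the authors deposited raw read counts per gene, made per the labels and methods with fastp, STAR and featureCounts (version 2.0.1 in the labels). For day 21 the authors deposited UMI counts from Cell Ranger, and for day 8 expected counts from the ScaleBio pipeline, of which 10.2% (WT) and 10.5% (KO) of entries were not whole and were rounded. For ATAC-seq the authors deposited broad MACS2 peaks on hg38, called on 2 pooled libraries per genotype, with the fold over background and −log10 q-values. How reads at overlapping genes were assigned was not given in the sources used here.

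Bulk counts were tested with edgeR 4.0.16 (quasi-likelihood, TMM, filterByExpr, Benjamini-Hochberg over all genes tested, threshold 0.05) in R 4.3.3. The 8 day 8 libraries were fitted together. DESeq2 1.42.0, limma-voom (limma 3.58.1), other filters and a replicate block were alternatives. The biological coefficient of variation was 0.0949 at day 6 and 0.302 at day 8. Day 21 cells had 1500 to 5000 genes and under 15% mitochondrial UMIs, which left 6128 WT cells, the number the study states, and 5611 KO cells, 1 more than stated. Day 8 cells had at least 200 genes and under 5%. UMIs were summed per library and class, with exact conditional intervals of ratios, Poisson intervals of levels and Clopper-Pearson intervals of shares (scipy 1.17.1, 95%). Scrublet ran in scanpy 1.11.5. The code was tested on simulated data. All 10 genes were read in every comparison, and genes of the pathway lists where they passed the rule, at most 10 per comparison by size. The genes and lists were chosen with earlier results of these data known.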

Additional observations from a re-analysis of the deposited data

Results flagged for a closer look

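Effects pointed in opposite directions in WT and KO, with intervals that left out 1 in both, for 2 of the genes, in both cases with 1 library per genotype, so the difference between genotypes was not tested. CHGA in TPH1 cells over INS-dominant cells was 0.975 (0.957 to 0.992) in WT and 1.15 (1.13 to 1.16) in KO. CPE in cells with SST at 1% or more over INS-dominant cells was 1.43 (1.14 to 1.77) in the 15 WT cells and 0.853 (0.737 to 0.982) in the 41 KO cells. All 4 ratios are short of 1.5-fold, and the intervals cover counting error only. The SST sets also differ in make-up, since 7 of the 15 WT and 36 of the 41 KO cells had more INS than SST. In the SST-dominant KO cells, where SST leads, CPE over INS-dominant cells was 1.44, on the same side of 1 as in WT. Other ratios lay on opposite sides of 1 with an interval that held 1 in WT, among them G6PC2 in GCG- over INS-dominant cells (1.65, 0.731 to 3.30, in WT and 0.139, 0.0166 to 0.508, in KO) and PCSK2 in SST- over INS-dominant cells (0.547, 0.262 to 1.01, and 1.99, 1.06 to 3.40).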

How the results depend on the processing

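In GCG- against INS-dominant cells 2 of the 10 genes were called in both genotypes. The count was 4 in WT alone, 5 in KO alone, 1 at 2-fold, and 4 where cells with a second hormone at 10% of the first were left out, which left 17 WT and 16 KO GCG-dominant cells. In SST- against INS-dominant cells 5 were called in both, 3 at a hormone share of 5% and 0 without cells of a second hormone, with 1 WT and 0 KO SST-dominant cells left. For KO against WT in INS-dominant cells the count of 0 became 1 at a share of 5%, 1 without cells that held a TPH1 UMI (PCSK2 in both), and 2 with at least 1000 genes and under 20% mitochondrial UMIs (PCSK2 0.609 and G6PC2 1.53). Over all cells it became 2 with the mean of CPM per cell (CHGA 1.61 and SCG2 1.61). PCSK2 in SST- over INS-dominant KO cells reversed to 0.696 where all cells with SST at 1% counted. Of the single-cell values of a gene under an alternative, 405 stayed within the interval of the main value, 97 left it and 1, the PCSK2 value above, was a called value that reversed. Of the 405 and 97, 19 were values of genes not called and lay on the other side of 1 from the main value, among them PCSK2 in GCG- over INS-dominant KO cells (1.08 at a share of 5% and 1.18 without cells that held a TPH1 UMI), PCSK2 in SST- over INS-dominant WT cells (1.05 at 5%) and CPE in SST- over INS-dominant KO cells (0.853 with all cells with SST at 1%). In GCG-dominant cells the KO against WT count of 0 became 1 at shares of 0.5% and 5% (PCSK2). The cause of these changes was not tested beyond the fewer cells named.

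In day 6 bulk the count of 0 became 1 without a filter (PCSK2, 1.00, adjusted p = 0.0455 by edgeR) and ranged from 0 to 1 when 1 library was left out. The library letters and numbers give fewer than 3 pairs per comparison, so they share only a mark (correlation of deviations 0.243 at day 6 and 0.329 to 0.677 at day 8). With that mark as replicate block, PCSK2 at day 6 was called, making the count 1 (0.89, adjusted p = 0.0407 by edgeR), the count over all genes went from 56 to 842, and PCSK2 under H2O2 reversed to 0.12. It reversed to 0.13 with limma-voom. Leaving out 1 library in turn gave PCSK2 values with a change of sign at day 6 (−0.80 to 2.20) and under H2O2 (−0.69 to 1.04, with 0.34 also reversed). It did so for CPE at day 6 (−0.05 to 0.11), under H2O2 (−0.88 to 0.54, with 0.22), in KO at day 8 (−0.77 to 0.74, with 0.48) and with selenite (−0.18 to 1.08, with −0.16), and for ERO1B with selenite (−0.15 to 0.51). Over all genes at day 6, DESeq2 called 149, a fit without a filter 580, and fits without 1 library 201 to 977. At day 8 fits without a filter called 31, 136 and 19 genes for KO, H2O2 and selenite, and the block 2, 26 and 0. The ATAC count kept within 1.5 times the main count under 6 alternatives. Depth limits what can be seen of SST-dominant cells, of G6PC2 and of the 7 genes under the bulk filter.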

Other observations

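SCG2 in the remaining KO cells of day 21 came from few cells. Cells with at least 5 SCG2 UMIs, a limit set after seeing the values, were 106 of 2437 in KO (4.35%) and held 2215 of the 2455 SCG2 UMIs (90.2%). They also held 82.7% of the UMIs of SCT (secretin), 76.9% of those of PENK (proenkephalin) and 48.2% of those of CCK (cholecystokinin) in the remaining KO cells. CHGA was at 13845 CPM in them and PCSK2 at 579, near the levels of hormone cells, whereas SLC30A8 was at 14.7 and TPH1 at 42.9 CPM. In WT 48 of 4652 remaining cells (1.03%) passed the same limit and held 428 of 1131 SCG2 UMIs (37.8%) and 43.5% of the CCK UMIs. In the other remaining cells SCG2 was at 13.3 CPM in KO and 27.1 CPM in WT. Because the limit is on SCG2 itself, SCG2 had to be lower in the cells left over, and the KO remaining cells are deeper (median of 7538 UMIs against 5348 in WT), so more of them can pass it.

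INS-dominant cells with at least 3 TPH1 UMIs were read apart at INS shares of 1 to 5%. In these 127 WT and 193 KO cells CHGA was at 14983 and 21919 CPM and PCSK2 at 555 and 586 CPM, while ERO1B was at 373 and 138 CPM and SLC30A8 at 183 and 201 CPM.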
